A study of Homo sapiens with 4 samples.

Results

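The genes described are 10 apoptosis genes that the transcription factor p53 activates: the death receptors FAS and TNFRSF10B, the BH3-only proteins BBC3, PMAIP1 and BID, the pore protein BAX, the apoptosome scaffold APAF1, and AEN, TP53I3 and PERP. They were taken as a list of names, by a rule that uses no measured value but was written with earlier results of these data known. All 10 were found among the 26484 rows of the gene table and passed its filter on low counts. Polyadenylated RNA was sequenced from 4 libraries of A375, a human melanoma cell line grown in DMEM, and the values are read counts per gene scaled for library depth (normalized counts). The 2 knockout libraries (KO) came from cells in which p53 had been disrupted with CRISPR-Cas9, and the 2 wild-type libraries (WT) from the parental line with intact p53. The KO libraries are called KO 2 and KO 8 after the numbers in the table, which do not match the labelled replicates. The series describes 1 knockout line; whether the libraries came from separate clones or cultures is not given in the sources used here, and p-values therefore measure only the spread between these libraries. Loss of p53 and effects of editing and selecting the line cannot be told apart. No p53-activating drug or irradiation is named for any library.

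p53 binds DNA as a tetramer and switches on genes that kill damaged cells by 2 routes. In the extrinsic route, FAS and TNFRSF10B on the cell surface bind their ligands and recruit caspases. In the intrinsic route, BH3-only proteins neutralise the survival proteins of the BCL2 family, BAX and BAK1 open the outer mitochondrial membrane, and released cytochrome c joins APAF1 to activate caspase 9.

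Library depth was similar, with 30334054 and 32160978 reads in KO 2 and KO 8 and 29230554 and 36331894 in WT 1 and WT 2. Of 10 markers of the melanocyte lineage and melanoma, 6 passed the filter, and their sum over all 10 was 39167 and 34941 normalized counts in KO 2 and KO 8 against 42540 and 41762 in WT 1 and WT 2. DESeq2 called 1 of them, MITF, the lineage's master transcription factor, which had 849 and 1050 in KO 2 and KO 8 against 1645 and 1562 in WT 1 and WT 2 (log2 fold change -0.76 ± 0.13; limma adjusted p = 0.237, DESeq2 adjusted p = 0.00272). SOX10, another transcription factor of the lineage, made up most of the marker sum. It had 28125 and 25662 normalized counts in KO 2 and KO 8 and 30033 and 29587 in WT 1 and WT 2. S100B and PRAME were also lower in both KO libraries than in either WT library, and MIA overlapped. PMEL, a pigmentation gene, lay the other way, at 55.8 and 36.1 in KO 2 and KO 8 against 28.5 and 28.1 in WT 1 and WT 2. The pigmentation genes MLANA and TYR were at 0 in all 4 libraries, and DCT and TYRP1 did not exceed 14.3 in any. Summed over 7 fibroblast markers, the level was 2336 and 1384 normalized counts in KO 2 and KO 8 against 1353 and 1299 in WT 1 and WT 2. PDGFRA had 1033 and 368 in KO 2 and KO 8 against 355 and 284 in WT 1 and WT 2, PDGFRB had 1166 and 764 in KO 2 and KO 8 against 829 and 847 in WT 1 and WT 2, and DCN had 30.5 and 27.3 in KO 2 and KO 8 against 10.96 and 14.9 in WT 1 and WT 2. LUM had 31.6 in KO 2 and 165 in KO 8, on either side of 92.1 and 101 in WT 1 and WT 2. COL1A1, at 73.7 and 58.6 in KO 2 and KO 8, overlapped with 63.6 and 47.4 in WT 1 and WT 2. COL1A2 and COL3A1 did not exceed 3.51 in any library, and DESeq2 called 0 of the 7. Over 5 blood cell markers the sum was 2344 and 972 in KO 2 and KO 8 against 1709 and 1450 in WT 1 and WT 2, nearly all from CD68, with HBB at 0. Over 5 epithelial markers it was 35.8 and 27.3 in KO 2 and KO 8 against 47.1 and 67.5 in WT 1 and WT 2, mostly from KRT14, with CDH1 at 0. The part of these markers in the results below was not tested.

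The 10 genes did not move in 1 direction. FAS and PMAIP1 were about 1.90 and 1.48 times the WT mean in the KO libraries, and AEN was 67.0% of it; the other 7 lay between 86.2% and 128% of the WT mean. The KO libraries both lay above both WT libraries for 6 genes (FAS, TNFRSF10B, PMAIP1, BID, APAF1 and PERP) and both below for 3 (BBC3, BAX and AEN). These 9 of 10 compare with 46.4% of the 15431 genes tested (22.8% higher and 23.7% lower). With limma on log2(normalized count + 1), adjusted over all 15431 genes by the Benjamini-Hochberg method, 0 of the 10 were called at 0.05, as were 0 genes overall (0.0% of those tested). At an unadjusted p under 0.05, limma had 2 of the 10 higher (FAS and PMAIP1) and 1 lower (AEN), against 5.85% and 6.16% of all tested genes. DESeq2 on the recovered reads called the same 3, FAS and PMAIP1 as higher and AEN as lower, where 1.21% and 1.22% of the 16330 genes with an adjusted p were called. The edgeR quasi-likelihood test called 0, and at an unadjusted p under 0.05 it too had FAS and PMAIP1 higher and AEN lower, against 6.13% and 5.97% of all tested genes. DESeq2 kept the 3 calls without KO 2, adding PERP (3.51% of genes were called higher and 5.04% lower), and without KO 8, adding TNFRSF10B and BID (7.96% and 9.14%). It lost all 3 without WT 1 (0.187% and 0.0736%) and without WT 2 (0.191% and 0.102%), where the adjusted p of each of the 10 genes was 0.999 or above by limma and by DESeq2.

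**Figure D1:**
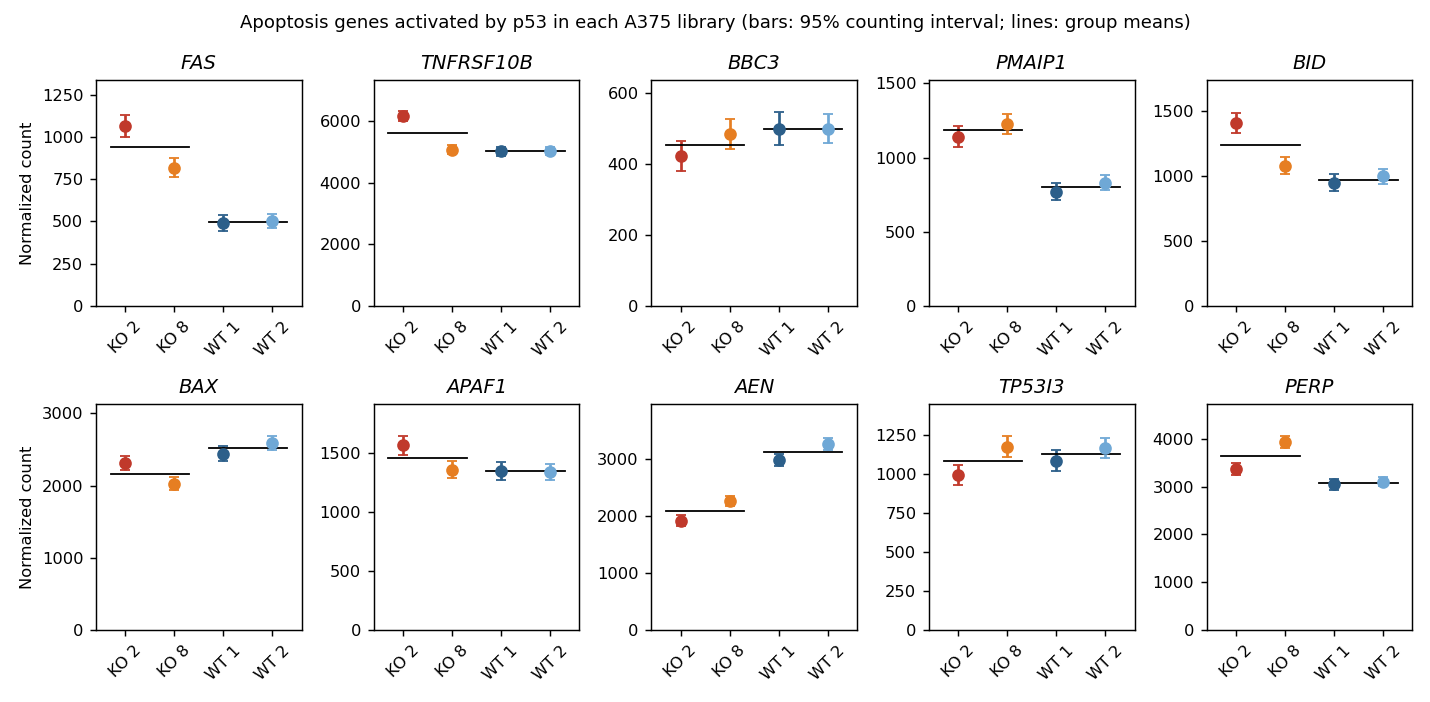
Normalized counts (vertical axes, from 0) of the 10 genes in KO 2, KO 8, WT 1 and WT 2; points are libraries, bars their exact 95% counting intervals and lines the group means. FAS and PMAIP1 lie above the WT libraries, AEN lies below them, and the other panels show small or overlapping differences.

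Beside the counts, the DNA around the transcription starts of these genes was searched for the sequence that p53 recognises, and the closest matches are shown because they were found in the 3 genes that DESeq2 called. The p53 consensus is a 10-base motif, searched by name and reading the same on both strands; a p53 tetramer binds 2 of them side by side. RefSeq windows of 300 bases (250 before to 50 after a start, GRCh38.p14) were at hand for 9 of the 10 genes, in 15 windows. A pair of adjacent motifs with at most 3 mismatches in 20 bases, none in the central bases, was present in a window of FAS and in the window of AEN, with 2 mismatches each. Such pairs were found in 0.427% of all 35116 windows, and in at least 1 window of 0.524% of the 27305 genes. In these lines the capitals mark the pair, given 5′ to 3′ on the gene's strand.
FAS: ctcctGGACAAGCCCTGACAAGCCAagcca
AEN: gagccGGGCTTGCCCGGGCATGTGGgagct

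The FAS stretch (chr10:88991304-88991333, plus strand) lies in the first intron of the protein-coding FAS transcripts and inside the first exon of 2 annotated FAS transcripts with no coding sequence (GENCODE 29). The AEN stretch (chr15:88621301-88621330, plus strand) lies in the untranslated first exon of a protein-coding AEN transcript, and the pair itself ends 15 bases before the RefSeq start used for the window. Both genes therefore hold a close match, while their changes went in opposite directions, FAS being higher and AEN lower in the KO libraries. The matches were chosen for display by the DESeq2 calls, and a link between match and change was not tested. Without the condition on the central bases, PMAIP1 came next with 3 mismatches, a number reached or bettered in 5.2% of all windows, and BAX had 4, reached or bettered in 26%. In the next lines, 20 bases each, capitals mark bases that fit the consensus.
PMAIP1: GAGCgTGTCCGGGCAgGTCg
BAX: GcACTTaTCgGGAgATGCTC

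The PMAIP1 stretch is at chr18:59899811-59899830 and the BAX stretch at chr19:48954707-48954726, both on the plus strand and before the annotated gene. BBC3, BID, APAF1, TP53I3 and PERP had no stretch with fewer than 5 mismatches in their windows, and 70.5% of all windows had 5 or fewer. A match is only a string of letters, and p53 sites of these genes can lie outside the windows searched.

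FAS, the receptor for FAS ligand (chromosome 10, 88990582 to 89015785, plus strand, GENCODE 29 on GRCh38), had 1062 and 816 normalized counts in KO 2 and KO 8, against 488 and 500 in WT 1 and WT 2. Both KO libraries were far above both WT libraries, and the groups did not overlap. The log2 fold change was 0.91 ± 0.16 (SE; limma adjusted p = 0.238, DESeq2 adjusted p = 0.00156). ACTA2, a smooth muscle actin gene on the opposite strand that overlaps FAS, had 707 and 323 normalized counts in KO 2 and KO 8 and 429 and 318 in WT 1 and WT 2. In KO 2 it lay above both WT libraries, as FAS did, and in KO 8 it lay within its WT range while FAS did not. Protein-coding genes on the opposite strand also overlap TNFRSF10B (RHOBTB2), APAF1 (ANKS1B) and TP53I3 (FAM228B). The libraries were made with a strand-specific kit, but the strand setting of the counting is not given in the sources used here, and reads of overlapping genes may be shared.

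TNFRSF10B, the TRAIL receptor DR5 (chromosome 8, 23020133 to 23069179, minus strand), had 6164 and 5084 normalized counts in KO 2 and KO 8, against 5036 and 5041 in WT 1 and WT 2. Both KO libraries stood above both WT libraries, but only KO 2 did so beyond counting error: the interval of KO 8, from 4947 to 5225, took in both WT values. Its log2 fold change came to 0.15 ± 0.12 with a 95% interval from -0.15 to 0.46 (limma adjusted p = 0.639). Between the death receptors, FAS was thus above WT in both KO libraries and TNFRSF10B in KO 2 beyond counting error only. The difference between KO 2 and KO 8 has no replicate to test it. Ligands were nearly silent: FASLG was at 0 in all 4 libraries and TNFSF10, which encodes TRAIL, had 0 in KO 2 and KO 8, 0 in WT 1 and 0.877 in WT 2, the value of 1 read.

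PMAIP1, the BH3-only protein NOXA that binds MCL1 (chromosome 18, 59899948 to 59904306, plus strand), had 1141 and 1227 normalized counts in KO 2 and KO 8, against 767 and 831 in WT 1 and WT 2. The KO libraries were close to each other and well above both WT libraries. The log2 fold change was 0.57 ± 0.10 (limma adjusted p = 0.248, DESeq2 adjusted p = 0.0252). BBC3, the BH3-only protein PUMA (chromosome 19, 47220822 to 47232766, minus strand), had 422 and 484 normalized counts in KO 2 and KO 8, against 499 and 500 in WT 1 and WT 2. It was lower in KO 2. The KO 2 counting interval of 382 to 465 overlapped those of WT 1 (454 to 547) and WT 2 (460 to 543). The KO 8 counting interval of 443 to 529 took in both WT values. BBC3 had a log2 fold change of -0.14 ± 0.13, with a 95% interval from -0.49 to 0.20 (limma adjusted p = 0.690). That 95% interval rests on the spread between these 4 libraries only, so it cannot exclude a larger loss of BBC3 on knockout.

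BID, the BH3-only protein that caspase 8 cleaves to link both routes (chromosome 22, 17734138 to 17774770, minus strand), had 1404 and 1076 normalized counts in KO 2 and KO 8, against 947 and 995 in WT 1 and WT 2. KO 2 was well above WT; the counting intervals of KO 8 (1014 to 1142) and WT 2 (938 to 1054) overlapped. This is a log2 fold change of 0.34 ± 0.15 (limma adjusted p = 0.473). In KO 8 the ratio of BID to the WT mean, 0.15 on the log2 scale, was smaller than the median of its 27 nearest expressed neighbours on chromosome 22, 0.17, whereas in KO 2 the neighbours had a median of 0.00036 and BID 0.53.

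BAX, which opens the mitochondrial membrane (chromosome 19, 48954815 to 48961798, plus strand), had 2308 and 2026 normalized counts in KO 2 and KO 8, against 2441 and 2587 in WT 1 and WT 2. Both KO libraries were below WT, KO 8 more so. The KO 2 counting interval (2212 to 2407) overlapped that of WT 1 (2340 to 2544). BAX had a log2 fold change of -0.22 ± 0.10 (limma adjusted p = 0.480). In KO 2 the 40 neighbouring genes on chromosome 19 had a median log2 ratio of -0.16, and that of BAX was -0.12; in KO 8 these values were -0.0019 for the neighbours and -0.31 for BAX. BAX was thus lower than the median of its neighbours in KO 8 and not in KO 2.

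APAF1, the scaffold of the apoptosome (chromosome 12, 98645141 to 98735433, plus strand), had 1564 and 1356 normalized counts in KO 2 and KO 8, against 1346 and 1342 in WT 1 and WT 2. It was above WT beyond counting error in KO 2, and KO 8 was within counting error of WT. APAF1 had a log2 fold change of 0.12 ± 0.10, with a 95% interval from -0.16 to 0.39 (limma adjusted p = 0.692).

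AEN, an apoptosis-enhancing nuclease (chromosome 15, 88621296 to 88632282, plus strand), had 1915 and 2255 normalized counts in KO 2 and KO 8, against 2974 and 3252 in WT 1 and WT 2. Both KO libraries were far below both WT libraries. The log2 fold change was -0.58 ± 0.11 (limma adjusted p = 0.259, DESeq2 adjusted p = 0.0165). TP53I3, a quinone oxidoreductase also called PIG3 (chromosome 2, 24077433 to 24085861, minus strand), had 996 and 1176 normalized counts in KO 2 and KO 8, against 1087 and 1167 in WT 1 and WT 2. KO 2 was below and KO 8 above both WT libraries, so the groups overlapped; the log2 fold change was -0.06 ± 0.12, with a 95% interval from -0.38 to 0.26 (limma adjusted p = 0.868).

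PERP, a tetraspan membrane protein of desmosomes and of p53-dependent apoptosis (chromosome 6, 138088505 to 138107511, minus strand), had 3362 and 3925 normalized counts in KO 2 and KO 8, against 3047 and 3103 in WT 1 and WT 2. Both KO libraries were above both WT libraries, KO 8 more so. The log2 fold change was 0.24 ± 0.10 (limma adjusted p = 0.451). Counting intervals of both KO libraries were clear of both WT libraries for 4 genes, FAS, PMAIP1 and PERP above and AEN below, against 12.8% of all tested genes (5.9% above and 6.95% below).

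The KO libraries differed from each other more than the WT libraries did for 9 of the 10 genes, all but PMAIP1, compared with 74.4% of tested genes. The median absolute log2 difference over the 10 genes was 0.23 between KO 2 and KO 8 and 0.05 between WT 2 and WT 1; over all tested genes these medians were 0.23 and 0.09. KO 2 was farther from the WT mean than KO 8 for 7 of the 10 (all but PMAIP1, BAX and PERP). Both KO libraries were on the same side of the WT mean for 9 of 10, all but TP53I3, compared with 61.6% of tested genes. Set against the WT pair alone, KO 2 gave limma calls for FAS, TNFRSF10B, PMAIP1 and BID as higher and AEN as lower (15.7% and 16.9% of all tested genes were called), and KO 8 for FAS, PMAIP1 and PERP as higher and BAX and AEN as lower (8.48% and 10.3%). These single-library calls take the spread of the WT pair as that of the lone KO library. They compare that library with the WT pair, not the conditions.

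**Figure D2:**
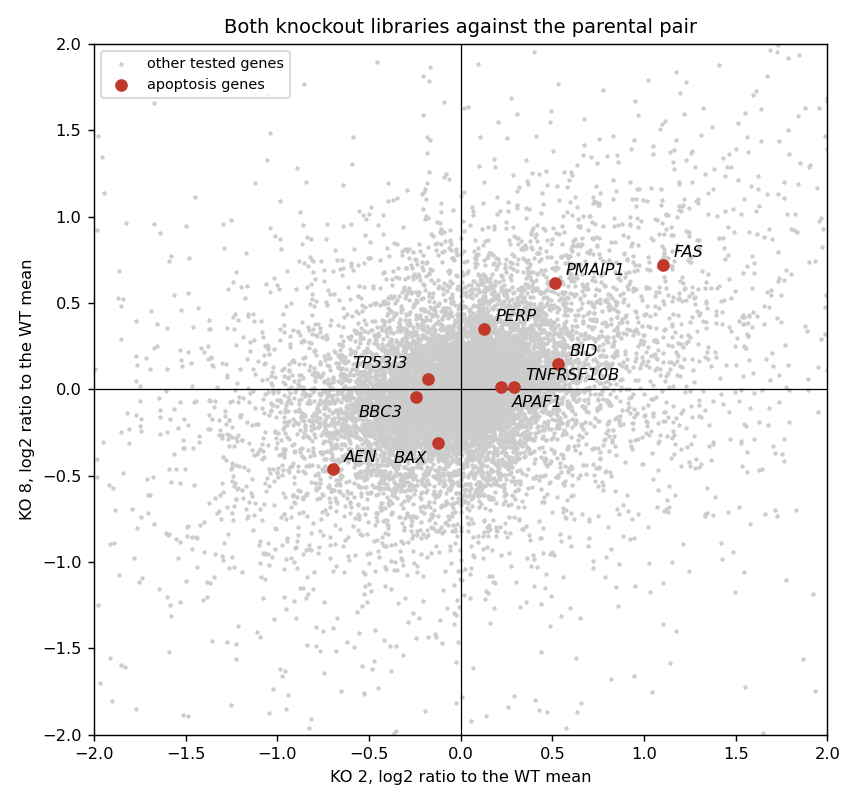
log2 ratio to the WT mean in KO 2 (horizontal) and KO 8 (vertical) for the tested genes, with the 10 apoptosis genes in red; 401 genes beyond 2 on either axis are not drawn. FAS and PMAIP1 lie high in both libraries, AEN low in both, and TNFRSF10B and APAF1 lie near 0 in KO 8.

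Each gene was also set beside the expressed genes around it on its chromosome. Across the genome, the median log2 ratio of 40 neighbours lay between -0.18 and 0.14 in KO 2 and between -0.13 and 0.11 in KO 8 for the central 90% of windows. The neighbours of FAS had medians of -0.04 in KO 2 and 0.03 in KO 8, where FAS had 1.10 and 0.72. Those of PMAIP1 had 0.06 and 0.0071, where PMAIP1 had 0.51 and 0.62. Those of AEN had -0.04 and -0.10, where AEN had -0.70 and -0.46. The differences of FAS, PMAIP1 and AEN were therefore far larger than the medians of the genes beside them in both KO libraries. Single neighbours can lie far from that median: ACTA2, which overlaps FAS, had 0.93 in KO 2 and -0.19 in KO 8. Less the neighbours' median, the fitted log2 fold change was 0.88 for FAS, 0.53 for PMAIP1, -0.55 for AEN, 0.17 for PERP and -0.11 for BAX.

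**Figure D3:**
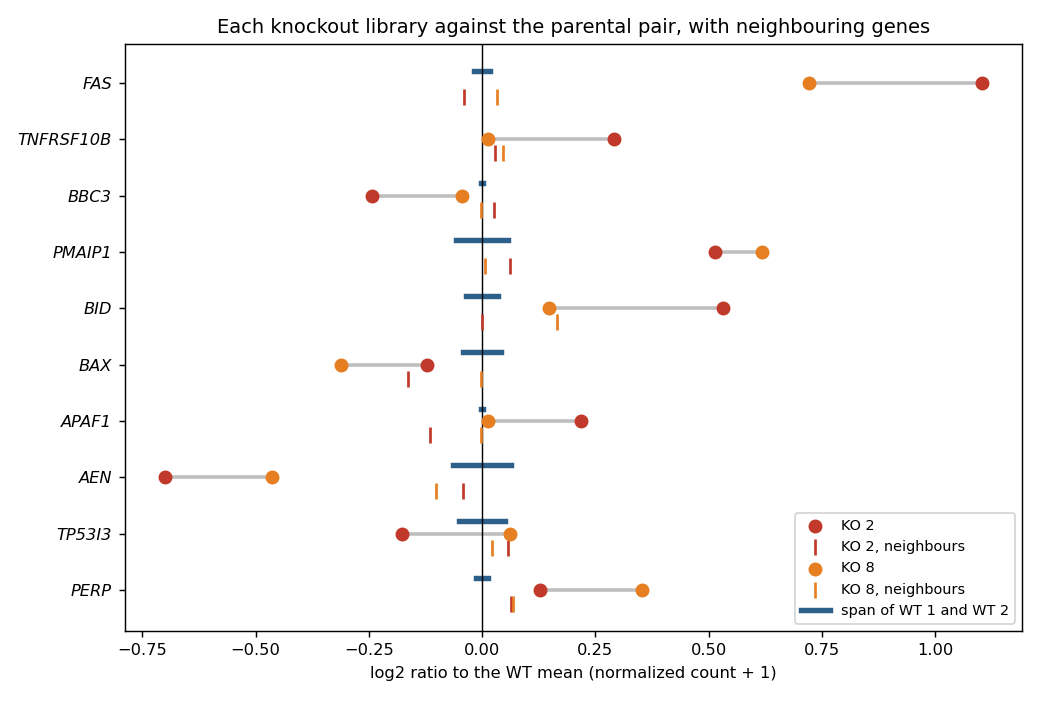
log2 ratio of KO 2 and KO 8 to the WT mean (horizontal axis) for each gene; dots are the gene, short vertical marks the median of its expressed neighbours in the same library, and blue bars the span of the WT libraries. The dots of FAS, PMAIP1 and AEN are far from the median of their neighbours, while BID in KO 8 and BAX in KO 2 lie close to theirs.

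Levels of different genes were compared per kilobase of merged GENCODE 29 exons. In WT cells TNFRSF10B and BAX stood highest, at 977 and 972 normalized counts per kb (means of 2 libraries), and did not differ beyond their spread. PERP followed at 717, then AEN at 517 and TP53I3 at 487, which overlapped, and PMAIP1 at 358. BID at 218, APAF1 at 170, BBC3 at 157 and FAS at 116 were lowest, and the values of their WT libraries did not overlap. Counting error in a library reached 10.3% for BBC3 and 5.75% for APAF1, so the order of APAF1 and BBC3 is not settled. In KO cells TNFRSF10B led at 1090 per kb; PERP at 849 and BAX at 838 came next and overlapped. PMAIP1, at 530 per kb, and TP53I3, at 470, stood above AEN, at 346, in the KO libraries. FAS, at 221 per kb, stood above BBC3, at 143, and overlapped with BID, at 279, and with APAF1, at 185. The order of PMAIP1 and AEN, and that of FAS and BBC3, was thus turned round between KO and WT libraries.

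**Figure D4:**
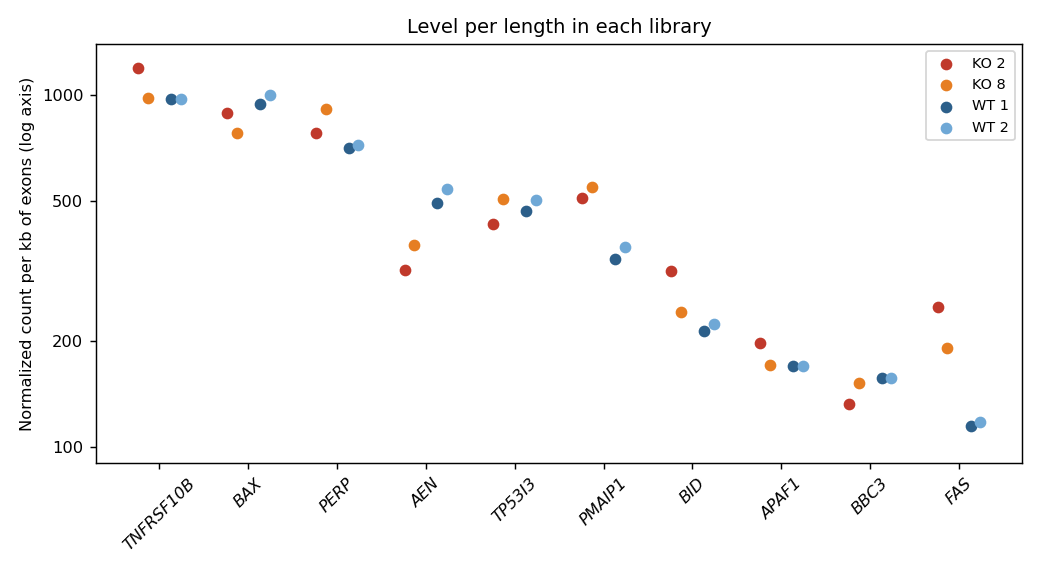
Normalized count per kb of exons (log axis) in KO 2, KO 8, WT 1 and WT 2, with genes in the order of their WT mean. PMAIP1 stands above AEN in both KO libraries and below it in both WT libraries, and FAS, lowest in WT, stands above BBC3 in both KO libraries.

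The rest of the cell death machinery was read from 9 lists holding 54 further genes, of which 48 passed the filter; the counts given per list below include those of the 10 genes that belong to it. These counts stand against 46.4% of all tested genes whose groups did not overlap, 22.8% higher and 23.7% lower. limma called 0 of the 48 after adjustment; at an unadjusted p under 0.05 it had 3 higher and 2 lower, against 5.85% and 6.16% of all tested genes (12% in either direction). Their median log2 fold change was -0.04, and that of all tested genes -0.0057. DESeq2 called 0 higher and 2 lower of the 48, both p53 targets, against 2.44% of its genes in either direction. ZMAT3, a p53-induced RNA-binding protein, had 1006 and 1108 normalized counts in KO 2 and KO 8, against 1744 and 1644 in WT 1 and WT 2 (log2 fold change -0.68 ± 0.10, DESeq2 adjusted p = 0.001002). TP53INP1, a p53-induced nuclear protein, had 210 and 221 in KO 2 and KO 8, against 441 and 389 in WT 1 and WT 2 (log2 fold change -0.94 ± 0.15, DESeq2 adjusted p = 0.00417). Like AEN, both were lower in both KO libraries than in either WT library. Of the 13 genes on that list of other p53-activated death genes, 3 were higher and 6 lower without overlap, which is 69.2% against 46.4% of all tested genes. PIDD1, a death domain protein that activates caspase 2, had 1076 and 937 in KO 2 and KO 8, against 1344 and 1158 in WT 1 and WT 2 (limma adjusted p = 0.438). PHLDA3, an inhibitor of AKT singled out after its values were seen, had 6137 in KO 2 and 1678 in KO 8, on either side of 3463 and 3296 in WT 1 and WT 2.

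Among death receptors and ligands, 2 of the 8 tested genes were higher and 2 lower without overlap, a share near the 46.4% of all tested genes. TNF, a ligand that signals through TNFRSF1A, was sparse at 5.26 and 17.6 normalized counts in KO 2 and KO 8, against 34.0 and 24.6 in WT 1 and WT 2. TNFRSF10C, a decoy receptor for TRAIL, had 16.8 and 11.7 in KO 2 and KO 8, against 17.5 and 25.4 in WT 1 and WT 2. TNFRSF21, the death receptor DR6, overlapped, at 2162 and 3094 in KO 2 and KO 8 and 2942 and 3310 in WT 1 and WT 2. None of the 3 was called (limma adjusted p = 0.447, 0.611 and 0.616). Among the 6 genes of the death-inducing signalling complex, 2 were higher without overlap and 0 lower, or 33.3% against 46.4% of all tested genes. CASP8, the caspase that death receptors activate, had 1521 and 2221 in KO 2 and KO 8, against 1399 and 1399 in WT 1 and WT 2. FADD, the adaptor that brings it to the receptor, had 2097 and 2111 in KO 2 and KO 8, against 1928 and 2045 in WT 1 and WT 2. CFLAR, which blocks caspase 8, had 995 and 1525 in KO 2 and KO 8, on either side of 1141 and 1069 in WT 1 and WT 2. None of these was called either, the smallest limma adjusted p being that of CASP8 at 0.505.

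Of the BH3-only genes, 3 of the 7 tested were higher and 2 lower without overlap, 71.4% against 46.4% of all tested genes. BMF had 488 and 693 normalized counts in KO 2 and KO 8, against 695 and 703 in WT 1 and WT 2, and BCL2L11, the BIM gene, had 589 and 473 in KO 2 and KO 8, on either side of 582 and 583 in WT 1 and WT 2. BIK, at 26.3 and 30.3 in KO 2 and KO 8 against 25.2 and 19.3 in WT 1 and WT 2, was barely expressed. Among the pore proteins BOK, a relative of BAX, had 657 and 603 in KO 2 and KO 8, against 430 and 405 in WT 1 and WT 2, a log2 fold change of 0.59 ± 0.12 (limma adjusted p = 0.261, DESeq2 adjusted p = 0.0689). BAK1 had 877 and 964 in KO 2 and KO 8 and overlapped with 886 and 988 in WT 1 and WT 2. BOK was thus the only one of the 3 pore genes that was higher in both KO libraries, BAX being lower and BAK1 overlapping.

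Of the 5 BCL2-like survival genes tested, 1 was higher and 1 lower without overlap, a share close to the 46.4% of all tested genes. BCL2A1, an inducible survival protein, had 648 and 646 normalized counts in KO 2 and KO 8, against 431 and 451 in WT 1 and WT 2, a log2 fold change of 0.55 ± 0.11 (limma adjusted p = 0.259, DESeq2 adjusted p = 0.0820). BCL2 had 159 and 232 in KO 2 and KO 8, against 234 and 239 in WT 1 and WT 2, and BCL2L2 overlapped. BCL2A1 and BOK, a survival and a death protein, thus lay higher by similar amounts in both KO libraries, and neither was called. Of the 5 inhibitors of apoptosis proteins tested, 3 were higher without overlap and 0 lower, where 22.8% of all tested genes were higher and 23.7% lower. BIRC3 had 2140 in KO 2 and 4886 in KO 8, against 2082 and 1909 in WT 1 and WT 2, and BIRC2 had 5504 and 4261 in KO 2 and KO 8, against 4038 and 4094 in WT 1 and WT 2. BIRC5, survivin, overlapped.

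Downstream, 3 of 7 apoptosome and mitochondrial genes were higher and 3 lower without overlap, 85.7% against 46.4% of all tested genes. Their median log2 fold change was -0.02, and some of the gaps were narrow. CASP9 had 895 in KO 2 against 892 in WT 1, and AIFM1 had 2595 in KO 8 against 2624 in WT 1. CYCS, cytochrome c, had 5511 and 5360 normalized counts in KO 2 and KO 8, against 4209 and 4788 in WT 1 and WT 2 (log2 fold change 0.28 ± 0.09, limma adjusted p = 0.393). ENDOG, a mitochondrial nuclease, had 590 and 501 in KO 2 and KO 8, against 645 and 676 in WT 1 and WT 2, and HTRA2, a mitochondrial protease, had 1945 and 2027 in KO 2 and KO 8, against 2205 and 2186 in WT 1 and WT 2. CASP2, an initiator caspase, had 1676 and 1845 in KO 2 and KO 8, overlapping with 1741 and 1900 in WT 1 and WT 2. CASP6, an executioner caspase, had 192 and 291 in KO 2 and KO 8, overlapping with 264 and 277 in WT 1 and WT 2. Their log2 fold changes were -0.05 ± 0.10 for CASP2 and -0.20 ± 0.24 for CASP6 (SE; limma adjusted p = 0.861 and 0.768).

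**Figure D5:**
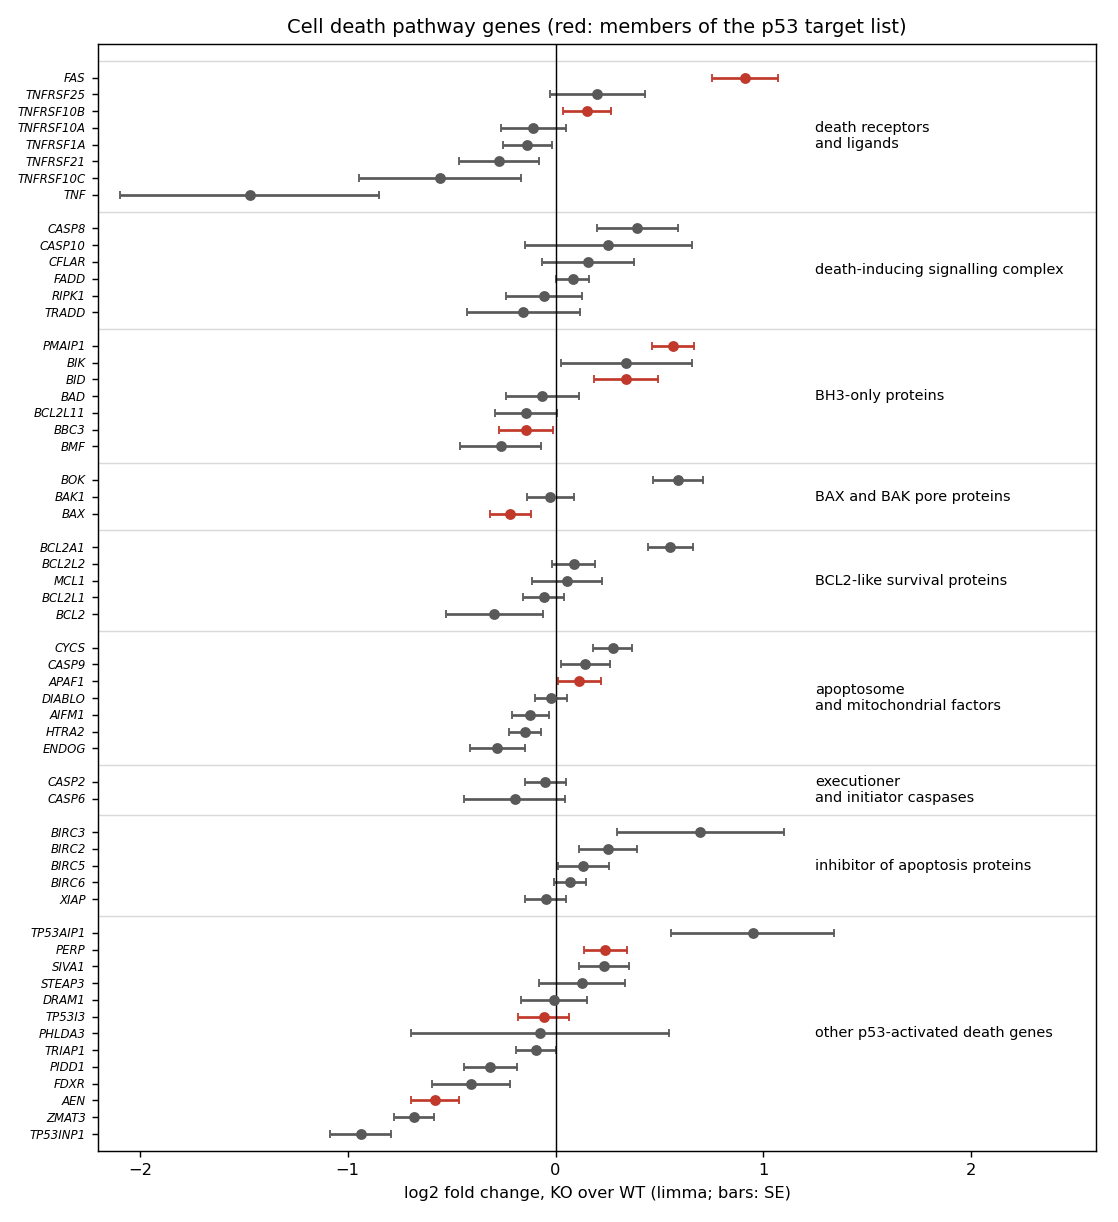
log2 fold change of KO over WT (horizontal axis, limma; bars are SE) for 56 tested genes of the 9 lists, with the 10 apoptosis genes in red. FAS stands at the top of the death receptors, AEN lies with ZMAT3 and TP53INP1 at the bottom of the other p53-activated genes, and CASP2 lies near 0.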

How the data were processed

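The authors deposited 1 signal per gene and library, a read count divided by the library's size factor: 100% of values were whole multiples of 1 step per library (tolerance 0.001). The tools named in the submitters' processing notes are STAR, HTSeq, Picard, deepTools and DESeq2, with build hg38; their versions and the annotation and strand setting were not stated.

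As designed for normalized values, limma 3.58.1 (R 4.3.3) with a trend was fitted to the log2 values after adding 1, for the 15431 genes that reached 10 in 2 or more libraries, with Benjamini-Hochberg adjustment over all of them (threshold 0.05); fold changes of weak genes are understated. Recovered reads were tested with edgeR 4.0.16, DESeq2 1.42.0 and limma-voom. The code of the fits was run on simulated data with large planted changes and the same spread in KO and WT, unlike these libraries. That run does not show the power of the fits here. An exact permutation test of 2 against 2 libraries cannot give p below 33.3%. Count intervals are exact Poisson 95% intervals and cover counting error only. Neighbours were up to 20 tested genes on each side. Named genes were the 10 genes, markers at 0 or defining the line, and up to 3 others per list with the smallest limma p. The genes and lists were chosen with earlier results of these data known. Some genes covered by this rule or these lists are not reported here.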

Additional observations from a re-analysis of the deposited data

How the results depend on the processing

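All 10 apoptosis genes kept their direction, and 0 were called, with edgeR, limma-voom, TMM or upper quartile scaling, without the filter, with a filter of 1 CPM, and with a pseudocount of 0.1. DESeq2 called 198 genes higher and 200 lower, of the 10 genes 2 and 1, and of the other pathway genes 0 and 2. Leaving out 1 library at a time with limma or DESeq2 (the DESeq2 runs were added after seeing the data), genes called ran from 0 to 2421 higher and 0 to 2602 lower, of the 10 genes 0 to 4 and 0 to 2, and of the other pathway genes 0 to 9 and 0 to 11. By DESeq2 alone, 521 and 749 genes were called without KO 2, 1215 and 1396 without KO 8, 28 and 11 without WT 1, and 30 and 16 without WT 2. Of the 10 genes, DESeq2 had 3 higher and 1 lower without KO 2, and 4 and 1 without KO 8. Of the other pathway genes it had 3 higher and 4 lower without KO 2, and 7 and 5 without KO 8. TP53I3 changed sign without KO 2 (log2 fold change 0.0627 by limma and 0.0623 by DESeq2) and ranged from -0.18 to 0.06. Less the neighbours' median, BAX moved to -0.11, by more than its SE, and the other 9 genes moved by less than theirs; the cause was not tested. No paired analysis was possible because the KO columns carry numbers that do not match the labelled replicates. With 2 libraries per group, limma called 0 genes, and the larger differences of FAS, PMAIP1 and AEN were not called either. For TNFRSF10B, BBC3, APAF1 and TP53I3 it therefore cannot tell a small difference from none.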
